A study of Mus musculus with 66 samples.

Results

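Closely spaced 3'UTR site pairs are genes whose 2 most used cleavage and polyadenylation sites (pAs) in the 3'-most exon lie less than 300 bases apart, so that a switch between them changes the 3'UTR by at most 299 bases. In the 3'READS table of C2C12 mouse myoblasts, the pair of each gene was the 2 sites of the 3'-most exon with most reads over 7 libraries. Each site had to hold at least 5% of the gene's reads, and both together had to average 20 or more reads over the libraries. Of 59578 pAs in 15856 genes, 38550 were in 3'-most exons and gave 4567 pairs, of which 1506 were close, 1253 lay 300 to under 1000 bases apart and 1808 lay 1000 bases or more apart. The total reads and the positions chose the members, and their number is therefore not a result.

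3'READS, a sequencing method that reads the end of an mRNA next to its poly(A) tail, was used to follow mRNA ends after depletion of subunits of the Polymerase-associated factor complex (Paf1C). The cells, an established line of muscle precursors, received 50 nM siRNA for 48 h, either a control (labelled siNS, here siCtrl) or 1 against Paf1 (siPaf1), Cdc73 (siCdc73) or Ski8 (siSki8), whose gene is listed as Wdr61. siCtrl, siPaf1 and siCdc73 each had 1 library in batch 1 (replicate 1) and 1 in batch 2 (replicate 2), and siSki8 had a library in batch 2 only, so its tests borrow the spread of the other groups. RNA-seq, as counts over coding regions, was made with the same design, and no label states that the batches were separate cultures, so p-values measure the spread between these libraries.

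An mRNA 3' end forms when the cleavage and polyadenylation machinery recognizes a hexamer, usually AAUAAA or AUUAAA, upstream of the cut and U/GU-rich elements downstream of it. Most mammalian genes carry several pAs, and alternative cleavage and polyadenylation (APA) between those of the last exon sets how much 3'UTR, with its microRNA and protein binding sites, the mRNA keeps. Paf1C travels with elongating RNA polymerase II and is known for roles in histone modification, elongation and 3' end formation. Pairs set far apart differ by whole regulatory regions, whereas in a close pair both sites come out of the polymerase almost at the same time and the mRNAs differ by little sequence.

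Sites of some of the pairs called below are shown first, as the last 30 bases up to the cleavage site on the transcript strand (mm9), with the best hexamer in capitals. They show the hexamer before each site. In some pairs it was AATAAA at both sites, and in others the sites had different hexamers. The stretch ends 6 bases before the site for proximal Neat1, whose hexamer lies farther upstream. First come 4 of the pairs called in siPaf1 against siCtrl, 3 toward the proximal and 1 toward the distal site.
Rpp30 proximal, chr19:36179085-36179114, plus strand: AATAAAacccagtgaagcattttttaaaga
Rpp30 distal, chr19:36179234-36179263, plus strand: actAATAAAttaacgtttttctactcggta
Eif1b proximal, chr9:120404144-120404173, plus strand: atgattctttacAGTAAAcgacagactttg
Eif1b distal, chr9:120404402-120404431, plus strand: cttaacAATAAAaagaaagtgtgcatcctt
Tigd2 proximal, chr6:59161788-59161817, plus strand: ccaAATAAAtgttacagatgattaggatta
Tigd2 distal, chr6:59161998-59162027, plus strand: aggctctcAATAAAtcttgctcaaattgaa
Yeats4 proximal, chr10:116652277-116652306, minus strand: ggaagtgtttAATAAAtgtagtttactgct
Yeats4 distal, chr10:116652197-116652226, minus strand: gcaAATAAAtgttattctttgagaatttta
The next 4 pairs were called in siCdc73 against siCtrl (Neat1 and Denr toward the proximal site, Dqx1 toward the distal site) and siSki8 against siCtrl (1500001M20Rik).
Neat1 proximal, chr19:5842580-5842609, minus strand: AATAAAagagactgggccctgggtcatctt
Neat1 distal, chr19:5842302-5842331, minus strand: agcaaAATAAAggtttgagattgaagcttc
Denr proximal, chr5:124377402-124377431, plus strand: tataccctacAGTAAAgctgtcgactcctc
Denr distal, chr5:124377572-124377601, plus strand: agtcaAATAAAacattttggtcatttggta
Dqx1 proximal, chr6:83016994-83017023, plus strand: tgctcatatacattaaataAATAAAtcttt
Dqx1 distal, chr6:83017181-83017210, plus strand: cccatctaAATAAAtcttttttttaaaaaa
1500001M20Rik proximal, chr6:114954402-114954431, minus strand: atgAATAAAtggctccatgcttttttaaga
1500001M20Rik distal, chr6:114954213-114954242, minus strand: gaatctgggATTAAAaggtgtgtgccacga

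The spacing of the 1506 close pairs ran from 25 to 299 bases with a median of 108. Of them, 289 pairs were under 50 bases, 414 at 50 to under 100, 440 at 100 to under 200 and 363 at 200 to under 300 bases, and 25 pairs lay at exactly 25 bases, the smallest distance in the set. Bag1 was at 25 bases, Sfxn3 at 299 bases just inside the limit and Rasa1 at 300 bases just outside it. The proximal site was in an annotated 3'UTR in 1382 pairs (91.8%), and the distal site in 1036 (68.8%), with 404 distal sites downstream of the annotated gene. The median 3'UTR reached 686 bases to the proximal and 810 bases to the distal site over 1441 pairs with an annotated 3'UTR, so the stretch between the sites was a median 13.6% of the longer 3'UTR, against 49.0% over all pairs tested. The distal site lay within 25 bases of an annotated transcript end in 909 pairs (61.3%) and the proximal site in 442 (29.8%), against 60.8% and 28.8% over all pairs.

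Hexamers were searched in the 40 bases before each site on the transcript strand, taking AATAAA first, then ATTAAA, then a variant, which was AGTAAA or else TATAAA or else CATAAA or else GATAAA or else AATATA or else AATACA or else AATAGA or else ACTAAA. Proximal sites of close pairs had AATAAA in 46.9%, ATTAAA in 18.6%, a variant in 19.9% and none of these in 14.6%. Their distal sites gave almost the same shares, with 48.3%, 18.1%, 16.0% and 17.5%. Over all 4567 pairs the distal site was richer in the canonical hexamer, with AATAAA in 60.4% against 44.6% of proximal sites. The distal share of AATAAA went from 31.1% under 50 bases to 45.2%, 56.4% and 55.9% in the next 3 classes, and it was 62.1% at 300 to under 1000 bases and 69.3% at 1000 bases or more. Among the pairs under 50 bases, 43.6% of distal sites had no listed hexamer in those 40 bases, while 56.1% of proximal sites had AATAAA. In 10 pairs, all under 50 bases, the same hexamer was found for both sites. Only a hexamer within 40 bases of both sites could be found for both, so the window limits this count to short spacings. A hexamer farther before the distal site was not counted, so the 43.6% depends on the window as well. The hexamer began a median 23 bases before the site at both.

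**Figure D1:**
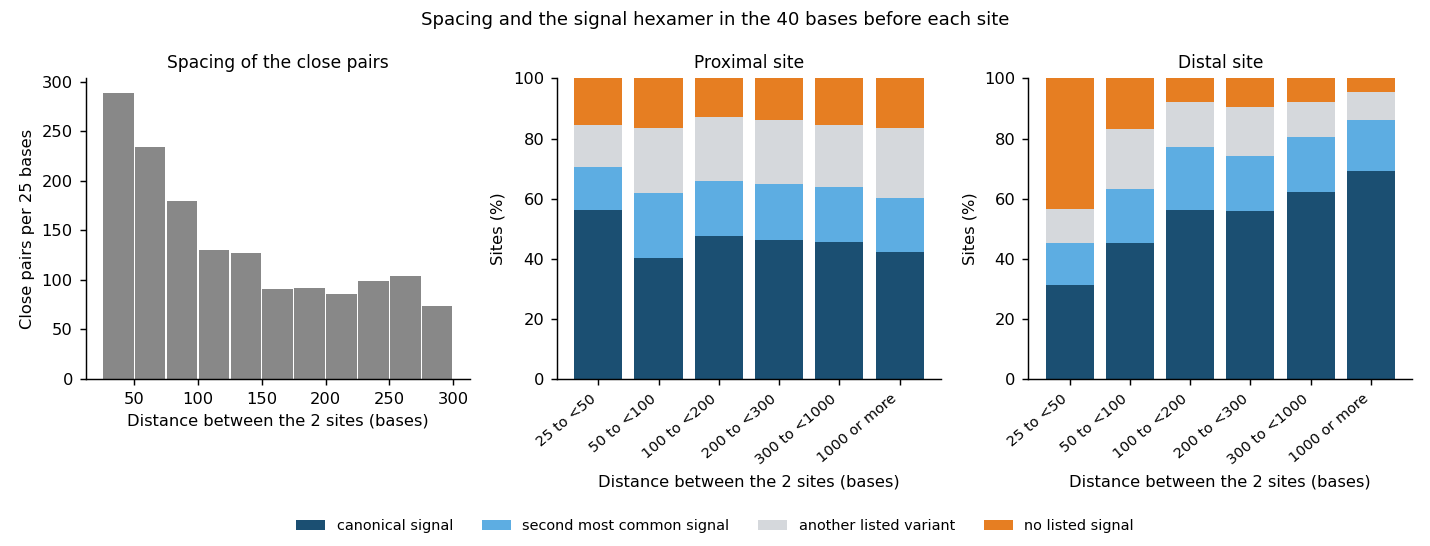
The left panel gives the number of site pairs per 25 bases of spacing (x axis, bases), and the middle and right panels the percentage of proximal and of distal sites (stacked bars) by hexamer class in each spacing class. Of the distal sites of pairs under 50 bases, 43.6% lack a listed hexamer in the 40 bases searched. The distal share of AATAAA goes up to 69.3% at 1000 bases or more.

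Other elements were counted as well. TGTA, the core of the motif bound by the cleavage factor CFIm, was in the 100 bases before 57.5% of proximal and 57.2% of distal sites (53.8% and 59.0% over all pairs). TGTGT or GTGTG, which overlap, was in the 40 bases after 18.2% of proximal and 21.6% of distal sites (18.04% and 23.6% over all pairs). These are counts of letters in a window and do not show a bound factor.

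The libraries held 5302728 to 14340927 reads, of which close pairs took 8.45% to 9.57%. Paf1 was at 17.6 and 18.2 CPM (reads scaled to the library total) in siCtrl and at 2.94 and 3.21 CPM in siPaf1, Cdc73 at 5.82 and 10.9 CPM in siCtrl and at 0.566 and 3.14 CPM in siCdc73, and Wdr61 at 6.50 and 22.3 CPM in siCtrl and at 1.45 CPM in siSki8. Of 7 myoblast markers 6 were listed, with summed levels of 824 to 2033 CPM, but Myod1, the defining myoblast factor, was at no more than 0.597 CPM. The 10 myotube markers summed to 68.6 to 515 CPM, highest in siPaf1 replicate 2, the 5 fibroblast markers to 1830 to 2909 CPM, 2 of 3 leukocyte markers (Cd3e not listed) to 1.84 to 6.14 CPM and 3 of 4 adipocyte markers (Fabp4 not listed) to 0.640 to 2.86 CPM. Single genes made up much of these sums. Des was the largest myoblast member in every library, with 1504 and 812 CPM in siCtrl. Col3a1, with 2382 and 2876 CPM in siCtrl, made up nearly all of the fibroblast sum. Cd34 was at 17.2 to 117 CPM, Pdgfra at no more than 10.1 CPM, and Dpt and Pi16 at no more than 1.66 CPM. The part of the markers in the results was not tested.

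The 3'READS library of siPaf1 replicate 2 stood apart. From a list of 20 male germ cell genes, put together after their values had been seen, 18 were listed and all 18 had reads in that library, 73463 in all (5481 CPM), against 14 and 66 reads in siCtrl, 110 in siPaf1 replicate 1, 238 and 1075 in siCdc73 and 45 in siSki8. Prm1, which packs sperm DNA, had 21481 reads there and 0, 18, 0, 0, 284 and 14 in the other libraries, in the order siCtrl 1 and 2, siPaf1 1, siCdc73 1 and 2 and siSki8. In the RNA-seq library labelled siPaf1 replicate 2, the 11 of these genes that were listed had 3 reads in all. This entered the membership itself. For 40 close pairs, more than 50% of all reads came from that library, and 12 close pairs, among them Mael and Kif2b, had 0 siCtrl reads. The medians, call counts and leading pairs for siPaf1 below are therefore also given without the library, with some exceptions. Counts of shares that do not overlap include it. So do medians by spacing class, hexamer class, gene list and site, and those over pairs with both sites in siCtrl. When the pairs were chosen again on the other 6 libraries there were 4413 pairs with 1466 close, 1377 of them the same close pairs.

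In siCtrl the distal site was the more used one in most close pairs. The median proximal share, that is the proximal site's percentage of the pair's reads, was 42.4% in siCtrl replicate 1 and 39.6% in replicate 2. It was 45.6% and 44.2% in siPaf1, 47.4% and 44.4% in siCdc73 and 42.9% in siSki8. In each batch the knockdown medians lay above that of the siCtrl library, with the siSki8 median close to that of siCtrl replicate 1. Over all pairs tested the medians were 43.0% and 39.1% in siCtrl, 46.3% and 46.3% in siPaf1, 50.0% and 47.6% in siCdc73 and 47.6% in siSki8. The same site was the major one in both siCtrl libraries in 1240 close pairs (82.3%, against 81.3% over all pairs), the proximal in 519 and the distal in 721. The shares differed between the siCtrl libraries by a median of 9.39 percentage points (10.3 over all pairs).

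The hexamers went with the baseline use of the sites. In the 338 close pairs with AATAAA at the proximal site only, the median proximal share was 65.1% and 58.2% in the siCtrl libraries, whereas in the 360 with AATAAA at the distal site only it was 29.5% and 25.5%. The 368 pairs with AATAAA at both had 41.7% and 41.8%, and the 440 with it at neither had 41.0% and 37.6%. These are medians over genes within a library, and genes are not replicates.

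The pairs with most reads showed how widely the shares ranged. Eef2, the translation elongation factor that moves the ribosome along, was cut mainly at its distal site, with proximal shares of 6.3% and 11.6% in siCtrl, 6.7% and 16.7% in siPaf1, 6.1% and 13.3% in siCdc73 and 10.4% in siSki8. Batch 2 was above batch 1 in all 3 replicated groups and the knockdowns overlapped siCtrl. Rps27l, a ribosomal protein paralog, was cut mainly at the proximal site 38 bases upstream, with 70.0% and 77.0% in siCtrl, 65.0% and 82.8% in siPaf1, 69.3% and 78.5% in siCdc73 and 67.2% in siSki8. Tceb2, the elongin B subunit, was low and even, at 6.6% and 8.5% in siCtrl and between 9.4% and 11.7% in the 5 knockdown libraries, all above siCtrl, although its log2 change was 0.37 ± 0.52 (SE) in siPaf1 and 0.58 ± 0.52 in siCdc73 and did not pass the test. Rpl26 and Gm15772 were listed with the same 2 positions and the same reads, as were 14 close pairs in all, so such pairs are 1 measurement listed more than once.

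The log2 change in proximal over distal reads was fitted with edgeR's quasi-likelihood test on the counts of both sites, over all 4567 pairs, without and with a term for the batch (the replicate block). Without the block no pair passed an adjusted p of 0.05 in any comparison, close or not (background 0% of all pairs). Among close pairs an unadjusted p under 0.05 was reached by 17 with a higher and 4 with a lower proximal site in siPaf1 (background 3.68% and 1.31%), 11 and 5 in siCdc73 (3.63% and 0.591%), 7 and 3 in siSki8 (1.18% and 0.109%) and 4 and 8 in siPaf1 against siCdc73 (0.81% and 1.88%). The biological coefficient of variation was 0.508 without and 0.269 with the block. Every site pair named below as called by edgeR therefore comes from a fit with the block and is absent from the fit without it.

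Close pairs moved toward the proximal site by a small median in every knockdown, whether or not the block was used. The median log2 change without the block was 0.21 in siPaf1, with 910 pairs (60.4%) above 0, 0.28 in siCdc73 with 945 (62.7%) and 0.17 in siSki8 with 878 (58.3%). Over all pairs tested it was 0.30, 0.40 and 0.37, and over those 1000 bases or more apart 0.36, 0.57 and 0.61. In the 4 close classes from shortest to longest, the medians were 0.15, 0.14, 0.23 and 0.34 in siPaf1, 0.29, 0.15, 0.26 and 0.37 in siCdc73 and 0.08, 0.14, 0.17 and 0.33 in siSki8. The classes below 100 bases thus had the smallest siPaf1 and siSki8 medians, and in siCdc73 the shortest class did not. The difference between classes was not tested.

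The same was seen within each batch, where no batch difference enters. In close pairs the siPaf1 median was 0.14 in batch 1 and 0.27 in batch 2, the siCdc73 median 0.24 and 0.27, and the siSki8 median 0.22 in batch 2. In pairs 1000 bases or more apart these were 0.16 and 0.47, 0.51 and 0.63, and 0.75. The siCtrl libraries themselves differed by -0.16 between batch 2 and batch 1 in close pairs and by -0.23 over all pairs, which is as large as some of the knockdown medians. The fits without siPaf1 replicate 2 used the pairs chosen without it. Without the block, where batch differences do enter, the close medians were 0.22 in siPaf1, 0.28 in siCdc73 and 0.16 in siSki8. Over all pairs they were 0.26, 0.40 and 0.36. With the block the close medians were 0.18, 0.27 and 0.22, against 0.21, 0.41 and 0.45 over all pairs.

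**Figure D2:**
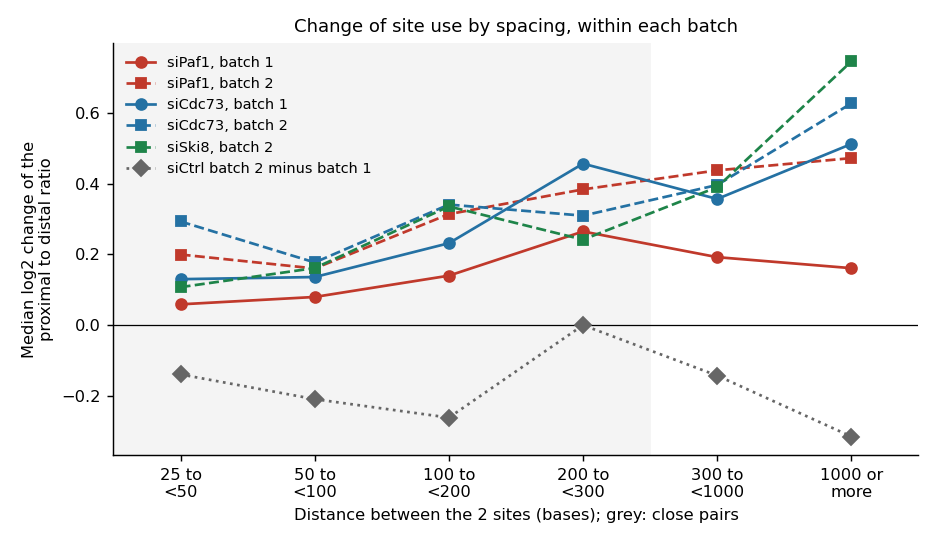
Median log2 change in proximal over distal reads (y axis) by spacing class (x axis, bases) within each batch, for siPaf1, siCdc73 and siSki8 against the siCtrl library of the same batch, with siCtrl batch 2 minus batch 1 dotted and the close classes shaded grey. The siCdc73 and siSki8 medians reach 0.51, 0.63 and 0.75 in the widest class, against 0.24, 0.27 and 0.22 over close pairs.

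The 2 sites contributed differently in the knockdowns. In siCdc73 the median log2 change of the level (CPM) at the distal site of close pairs was -0.28 in batch 1 and -0.37 in batch 2, while at the proximal site it was -0.01 and -0.06. In siPaf1 the proximal medians were 0.12 and 0.06 and the distal ones 0.01 and -0.17, so the distal decrease was seen only with siPaf1 replicate 2. In siSki8 the proximal median was 0.19 and the distal one -0.05. In a bulk culture, fewer cells of a type and less RNA per cell cannot be told apart.

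Membership itself bears on these values, since a site needs reads somewhere to enter. In 1375 close pairs (91.3%, against 91.2% of all pairs) both sites had at least 5% of the pair's reads in the pooled siCtrl libraries. In 88 the proximal and in 31 the distal site was below that, and 12 pairs had 0 siCtrl reads. Over these 1375 pairs the medians were 0.18 in siPaf1, 0.26 in siCdc73 and 0.15 in siSki8.

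For siPaf1 against siCtrl, which asks how loss of the Paf1 subunit shifts site choice, 23 close pairs passed an adjusted p of 0.05 with the block, 19 toward the proximal and 4 toward the distal site. This is 1.53% of close pairs, below the background of 6.81% of all pairs (5.12% proximal, 1.69% distal), and at 300 to under 1000 bases it was 5.75%. By spacing, 0 calls were under 50 bases, 2 proximal and 1 distal at 50 to under 100, 5 and 1 at 100 to under 200, and 12 and 2 at 200 to under 300 bases. Without siPaf1 replicate 2 only 4 close pairs were called (0.266%, background 1.12%), Rpp30, Neat1 and Lgals1 toward the proximal and Yy1 toward the distal site, of which Lgals1 had not been called with it. On the pairs chosen without that library the same 4 were called (0.273%, background 0.997%). Of the 19 proximal calls 10 had both sites at 5% in siCtrl, and of the 4 distal calls 3.

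Rpp30, a protein subunit of RNase P, which trims the 5' end of tRNAs, changed most plainly. Its proximal share was 22.3% and 24.2% in siCtrl, 70.6% and 68.8% in siPaf1, 39.5% and 47.5% in siCdc73 and 35.5% in siSki8. The siCtrl libraries lay below every knockdown library and siPaf1 above all others, and the batches of siCtrl and of siPaf1 hardly differed. The sites, with AATAAA at both, were 149 bases apart, the distal one 1 base past the annotated end. Reads went from 107 proximal and 372 distal in siCtrl replicate 1 to 137 and 57 in siPaf1 replicate 1, and from 252 and 788 to 293 and 133 in batch 2. The log2 change was 2.91 ± 0.50 (SE, edgeR adjusted p = 5.52e-06 with the block, 0.54 without), it was 3.14 ± 0.65 without siPaf1 replicate 2 (adjusted p = 0.00048), and the pair remained called without any 1 of the siCtrl, siPaf1 or siCdc73 libraries, with an adjusted p of at most 0.0288. In siCdc73 it was 1.35 ± 0.49 (edgeR adjusted p = 0.102 with the block).

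Neat1, the non-coding RNA on which nuclear paraspeckles are built, was called in both siPaf1 and siCdc73. Its proximal share was 6.6% and 1.1% in siCtrl, 25.3% and 10.5% in siPaf1, 39.0% and 28.2% in siCdc73 and 5.9% in siSki8. The siPaf1 and siCdc73 libraries were all above siCtrl, with siSki8 between the siCtrl values. Proximal reads were 22 and 2 in siCtrl, 145 and 65 in siPaf1 and 201 and 181 in siCdc73, so the proximal site was under 5% of the pair in pooled siCtrl and the pair owed part of its membership to the knockdowns. The log2 change was 2.48 ± 0.59 in siPaf1 (edgeR adjusted p = 0.00227 with the block) and 3.81 ± 0.59 in siCdc73 (adjusted p = 4.63e-07). Without siPaf1 replicate 2 the siPaf1 value was 2.60 ± 0.69 (adjusted p = 0.0203). The siCdc73 call held without any 1 of the siCtrl, siPaf1 or siCdc73 libraries, and the siPaf1 call was lost without siCtrl replicate 2 or siPaf1 replicate 1, with adjusted p values of 0.349 and 0.0567. Both positions lie in the non-coding exon and carry AATAAA.

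Several of the other siPaf1 calls rested on replicate 2. Eif1b, a paralog of the start codon selection factor eIF1, had proximal shares of 2.5% and 0.3% in siCtrl, 4.2% and 24.3% in siPaf1, 5.0% and 1.4% in siCdc73 and 1.4% in siSki8. Only siPaf1 replicate 2, with 112 proximal reads against 1 to 12 elsewhere, stood out, and the log2 change of 3.50 ± 0.78 (edgeR adjusted p = 0.000948 with the block) was 0.95 without that library (adjusted p = 0.870). The proximal site was under 5% of the pair in pooled siCtrl, so the pair became a member through reads of the knockdown in which it is high. Its proximal site has the variant AGTAAA and the distal one AATAAA. Prep, a peptidase that cuts small proline-containing peptides, was at 20.2% and 17.5% in siCtrl, 23.9% and 70.2% in siPaf1, 40.2% and 34.6% in siCdc73 and 6.8% in siSki8. Again a single siPaf1 library was far from the rest, and 1.92 ± 0.48 (adjusted p = 0.00363) became 0.29 without it (adjusted p = 0.959). Rbm5, a regulator of splicing, was at 0.7% and 0.9% in siCtrl and 3.9% and 21.3% in siPaf1, also under 5% in pooled siCtrl, and its adjusted p was 0.681 without siPaf1 replicate 2.

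In other siPaf1 calls the shares were higher in both batches. Those named here were lost without siPaf1 replicate 2 and also without siCtrl replicate 2. Each of these fits leaves 1 library in a group, so a lost call cannot show which library the change rested on. Tigd2, which derives from a transposase, was at 30.2% and 56.6% in siCtrl, 87.9% and 98.5% in siPaf1, 62.5% and 80.6% in siCdc73 and 79.6% in siSki8. Every knockdown library lay above both controls, but on few distal reads, 4 and 2 in siPaf1, and the log2 change of 4.73 ± 1.12 (edgeR adjusted p = 0.00202 with the block) had an adjusted p of 0.239 without siPaf1 replicate 2. Cyp1b1, a cytochrome P450, was at 26.9% and 31.8% in siCtrl and 49.9% and 59.8% in siPaf1, with siCdc73 at 32.7% and 43.6% and siSki8 at 21.7%. The siPaf1 libraries were above all the others, over sites 52 bases apart. The log2 change was 1.56 ± 0.44 (edgeR adjusted p = 0.0137 with the block). With the block it was 1.52 without siPaf1 replicate 2 and 1.59 without replicate 1. Ubap1, a subunit of the ESCRT-I sorting complex, was at 31.8% and 24.5% in siCtrl and 49.6% and 56.6% in siPaf1, with a log2 change of 0.96 (adjusted p = 0.695) without siPaf1 replicate 2 and 2.11 without replicate 1. Arhgef10l, a guanine nucleotide exchange factor, was at 46.3% and 37.9% in siCtrl and 59.5% and 75.5% in siPaf1. Its log2 change was 0.61 without siPaf1 replicate 2 and 2.48 without replicate 1. Without siCtrl replicate 2 the changes with the block were 4.44 in Tigd2, 1.43 in Ubap1 and 1.31 in Arhgef10l. In these pairs the change was smallest without siPaf1 replicate 2 (3.98 in Tigd2), so it rested in part on that library. In Cyp1b1 it was smallest without siCtrl replicate 2, at 1.41. Of the 19 proximal calls, 16 had siPaf1 shares that did not overlap siCtrl, and in 9 the proximal level was above and in 9 the distal level below both siCtrl libraries. Rnf19b, Sh3yl1, Narfl and Prkcd were called on sites with few or 0 reads in siCtrl, where a fitted change is no measure of size.

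The distal calls were fewer, and each was lost when either siCtrl library was left out. Rnf126, a ubiquitin ligase that handles misplaced proteins in the cytosol, had proximal shares of 78.0% and 86.8% in siCtrl, 60.4% and 68.0% in siPaf1, 82.9% and 85.5% in siCdc73 and 85.1% in siSki8. The siPaf1 libraries were the lowest, and the siCdc73 and siSki8 libraries lay within the siCtrl range. Its proximal site has AATAAA and its distal one AATACA, 227 bases on, and the log2 change was -1.42 ± 0.41 (edgeR adjusted p = 0.0164 with the block, 0.201 without siPaf1 replicate 2). Yeats4, a reader of acetylated histones in chromatin remodelling complexes, was at 96.5% and 80.8% in siCtrl and 89.9% and 68.5% in siPaf1, so the groups overlapped and only the batch-wise differences agreed in sign (-1.27 ± 0.42, edgeR adjusted p = 0.0449 with the block, 0.305 without siPaf1 replicate 2). Without siCtrl replicate 1 and without the block its change was 0.06. Chd4, the helicase of the NuRD complex, was at 44.6% and 39.6% in siCtrl and 26.1% and 16.0% in siPaf1, and its call was lost without siPaf1 replicate 2 (adjusted p = 0.566). Yy1, a zinc finger transcription factor, was at 99.0% and 94.8% in siCtrl and 95.5% and 90.4% in siPaf1. Its distal reads were 7 and 60 in siCtrl and 41 and 164 in siPaf1. The distal site was under 5% of the pair in pooled siCtrl. The pair thus owed its membership in part to reads of the knockdown in which that site is high. Its log2 change was -1.50 ± 0.50 (edgeR adjusted p = 0.0483 with the block). The change was -2.56 ± 0.70 without siPaf1 replicate 2 and -0.83 without replicate 1. The call was lost without siPaf1 replicate 1 or either siCtrl library.

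**Figure D3:**
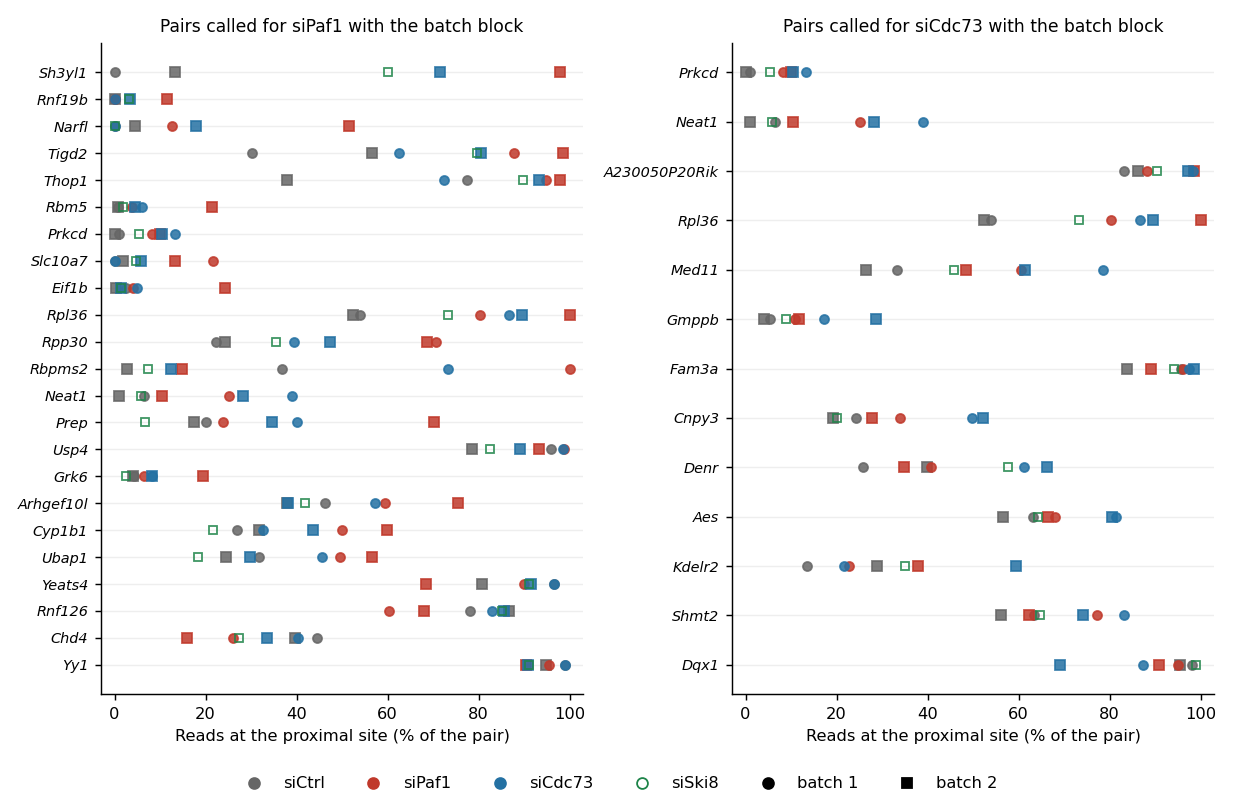
Proximal share (x axis, percent of the pair's reads) in each library for the 23 siPaf1 and 13 siCdc73 close pairs called with the replicate block, circles for batch 1, squares for batch 2 and open green squares for siSki8. Rpp30 separates siCtrl (22.3% and 24.2%) from siPaf1 (70.6% and 68.8%) in both batches, whereas Eif1b and Prep are high only in siPaf1 replicate 2 (24.3% and 70.2%).

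For siCdc73 against siCtrl, 13 close pairs were called with the block, 12 toward the proximal site and 1 (Dqx1) toward the distal one, 0.863% of close pairs against a background of 4.29% of all pairs (3.88% proximal, 0.416% distal). Between 300 and under 1000 bases 3.59% were called. Without siPaf1 replicate 2, which enters this comparison only through the shared spread, 15 proximal and 2 distal pairs were called (1.13%, background 5.76%), all 13 among them, and on the pairs chosen without it 15 and 3 (1.23%, background 5.85%). Of the 12 proximal calls 9 had both sites at 5% in siCtrl, 11 had shares that did not overlap siCtrl, and in 8 the distal level fell below both siCtrl libraries while in 3 the proximal level was above them. The distal site of Dqx1 was under that limit. Leaving out a siCtrl or siCdc73 library kept 2 to 4 of the 13, and only Neat1 and Dqx1 stayed called without any 1 of the siCtrl, siPaf1 or siCdc73 libraries.

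Denr, which works in ribosome recycling and reinitiation, had proximal shares of 25.8% and 39.96% in siCtrl, 40.7% and 34.8% in siPaf1, 61.1% and 66.2% in siCdc73 and 57.7% in siSki8. The siCdc73 libraries were the highest, siSki8 came next and siPaf1 overlapped siCtrl. Distal reads went from 196 and 622 in siCtrl to 82 and 369 in siCdc73, with the variant AGTAAA at the proximal site, and the log2 change was 1.85 ± 0.48 (edgeR adjusted p = 0.00861 with the block). Fam3a, a member of a family of cytokine-like proteins, has sites 35 bases apart, the closest pair among all the calls. Its proximal share was 95.8% and 83.8% in siCtrl, 96.2% and 89.1% in siPaf1, 97.5% and 98.6% in siCdc73 and 94.1% in siSki8. Both siCdc73 libraries were above every other library, on 7 and 5 distal reads, with a log2 change of 2.33 ± 0.62 (edgeR adjusted p = 0.0109 with the block). It rested on replicate 2, with 0.88 without that library (adjusted p = 0.707) and 3.62 without siCdc73 replicate 1.

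Aes, a short Groucho-family corepressor, had close siCdc73 replicates. Its proximal share was 63.1% and 56.6% in siCtrl, 68.1% and 66.5% in siPaf1, 81.4% and 80.5% in siCdc73 and 64.3% in siSki8. The siCdc73 libraries stood apart from all the others, and the log2 change was 1.51 ± 0.42 (edgeR adjusted p = 0.0149 with the block). Med11, a subunit of the Mediator head, was at 33.3% and 26.5% in siCtrl, 60.6% and 48.5% in siPaf1, 78.6% and 61.4% in siCdc73 and 45.9% in siSki8, so that every knockdown library was above siCtrl. Only the siCdc73 change passed the test (2.49 ± 0.69, edgeR adjusted p = 0.0148 with the block), and that in siPaf1 was 1.51 ± 0.67 (adjusted p = 0.199). Cnpy3, a chaperone of Toll-like receptors, was at 24.3% and 19.2% in siCtrl and 49.7% and 52.2% in siCdc73. Shmt2, the mitochondrial serine hydroxymethyltransferase, was at 63.5% and 56.1% in siCtrl and 83.2% and 74.2% in siCdc73. Kdelr2, the receptor that returns proteins to the endoplasmic reticulum, overlapped siCtrl, with 13.5% and 28.9% in siCtrl and 21.7% and 59.5% in siCdc73, and its call was lost without siCdc73 replicate 2 (adjusted p = 0.632).

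Dqx1, a DEAQ-box protein related to RNA helicases, was the only close pair called toward the distal site in siCdc73. Its proximal share was 98.2% and 95.5% in siCtrl, 94.96% and 90.9% in siPaf1, 87.4% and 69.0% in siCdc73 and 99.0% in siSki8. The siCdc73 libraries were the lowest and siSki8 the highest, and distal reads went from 13 and 20 in siCtrl to 34 and 208 in siCdc73. The log2 change was -3.12 ± 0.54 (edgeR adjusted p = 9.8e-06 with the block). The distal site was under 5% of the pair in pooled siCtrl, so the pair owed its membership in part to reads of the knockdowns in which that site is high. The coding-region level of Dqx1 in RNA-seq was 7.55 and 1.35 CPM in siCtrl, 21.1 and 18.1 CPM in siPaf1, 50.9 and 18.8 CPM in siCdc73 and 4.07 CPM in siSki8. The 3'READS shares were lower in siPaf1 and siCdc73 than in siCtrl, and the levels in the separate RNA-seq libraries of these groups were higher.

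For siSki8, with 1 library, 1 close pair was called with the block (0.0664%, background 0.307%), 1500001M20Rik. Its proximal share was 21.7% and 50.9% in siCtrl, 23.5% and 56.2% in siPaf1, 29.0% and 59.5% in siCdc73 and 86.8% in siSki8 (Wilson 95% interval 83.3% to 89.7%, which covers counting error only). Batch 2 was far above batch 1 in each replicated group, and siSki8 was above every batch 2 library. The log2 change was 2.65 ± 0.64 (edgeR adjusted p = 0.0431 with the block), and the call was lost without either siCtrl library and kept without siPaf1 replicate 2 (background 0.372%).

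siPaf1 and siCdc73 were compared directly to ask where the subunits differ. The median log2 change was -0.07 in close pairs and -0.11 over all pairs without the block, with 701 close pairs (46.5%) above 0. With the block 7 close pairs were called (0.465%, background 2.06%, of which 0.547% higher and 1.51% lower), Eif1b and Dqx1 toward a higher proximal share in siPaf1 and Rnf126, Yeats4, Gcat, Hspd1 and 2300009A05Rik toward a lower one. The Yeats4 difference was -2.02 ± 0.43 (edgeR adjusted p = 0.000953), with shares of 89.9% and 68.5% in siPaf1 against 96.6% and 91.4% in siCdc73, and without siCdc73 replicate 2 it was -1.49 (adjusted p = 0.393). Rnf126 differed by -1.57 ± 0.41 (edgeR adjusted p = 0.015, 0.202 without siPaf1 replicate 2). Gcat, a mitochondrial enzyme of threonine breakdown, was at 79.8% and 88.4% in siPaf1 and 97.4% and 99.0% in siCdc73, on 26 and 11 against 3 and 1 distal reads. Without siPaf1 replicate 2 Yeats4 remained (-2.07, adjusted p = 0.0310) and Lgals1 was added (1.51, adjusted p = 0.0269), so 2 pairs were called (0.133%, background 0.635%). Lgals1, galectin-1, is one of the most abundant mRNAs here, and its proximal share was 74.6% and 70.3% in siCtrl, 87.2% and 76.1% in siPaf1, 68.1% and 73.0% in siCdc73 and 73.9% in siSki8.

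**Figure D4:**
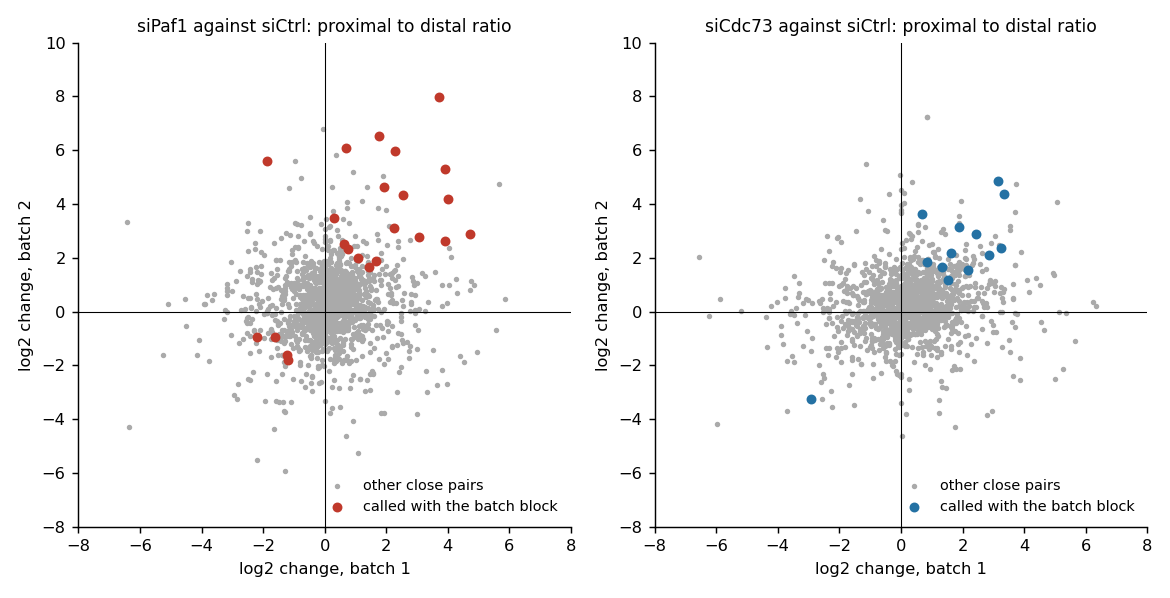
Log2 change in proximal over distal reads in batch 1 (x axis) against batch 2 (y axis) for each close pair, siPaf1 left and siCdc73 right, with pairs called with the replicate block coloured. Medians are 0.14 and 0.27 in siPaf1 and 0.24 and 0.27 in siCdc73, and the called pairs are 23 and 13.

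Shares that did not overlap between groups were common. In 286 close pairs (19.0%) both siPaf1 libraries were above both siCtrl libraries and in 145 (9.63%) below, against 22.6% and 12.2% of all pairs. In siCdc73 these were 312 (20.7%) and 144 (9.56%), against 24.8% and 8.85%. The single siSki8 library was above both siCtrl libraries in 516 close pairs (34.3%) and below in 329 (21.8%), against 42.7% and 17.8%. Batch differences could be as large as any of these. In 25 close pairs the share differed by over 40 percentage points between the batches in siCtrl, siPaf1 and siCdc73 alike, as in Rbm25, a splicing factor, with 40.2% and 90.3% in siCtrl, 29.2% and 89.8% in siPaf1 and 33.1% and 89.4% in siCdc73, and in siSki8 87.9%.

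In siPaf1 and siCdc73 calls were found in each of the 4 hexamer classes, and a difference between classes was not tested. Of the 19 proximal calls in siPaf1, 9 were in the class with AATAAA at the distal site only, 5 in that with it at neither, 3 at both and 2 at the proximal site only. Of the 12 in siCdc73, 4 were in the class with both, 4 proximal only, 2 distal only and 2 neither. Median log2 changes without the block were 0.11, 0.29, 0.21 and 0.27 in siPaf1 for the classes both, proximal only, distal only and neither, 0.30, 0.44, 0.10 and 0.25 in siCdc73 and 0.24, 0.24, 0.03 and 0.07 in siSki8.

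Among gene groups, close pairs made up 33.0% of all pairs tested. Of the cleavage and polyadenylation factors, 13 of 28 listed had a tested pair and 5 a close one, with 0 called in any knockdown and median changes of 0.61 in siPaf1, 0.45 in siCdc73 and -0.01 in siSki8. Of the elongation and Paf1C genes 7 of 10 tested pairs were close, 0 were called, and the medians were 0.83, 0.52 and 0.04. Paf1 itself has a close pair, with proximal shares of 76.9% and 96.1% in siCtrl and 94.1% and 97.3% in siPaf1, the latter on 16 and 36 proximal reads and 1 distal read each. Leo1, another subunit, was at 27.6% and 10.5% in siCtrl, 36.3% and 19.2% in siPaf1, 30.4% and 20.6% in siCdc73 and 23.5% in siSki8, where the groups overlapped. Cdc73 had 0 reads at both sites in siCdc73 replicate 1, and 11 proximal and 17 distal reads in replicate 2.

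Ribosomal proteins held 16 close of 28 tested pairs, with medians of 0.32, 0.33 and 0.51. Rpl36 was called toward the proximal site in siPaf1 and siCdc73, with 54.0% and 52.5% in siCtrl, 80.3% and 100.0% in siPaf1, 86.7% and 89.6% in siCdc73 and 73.2% in siSki8, all knockdown libraries being above siCtrl. Its log2 change was 3.01 ± 0.83 in siPaf1 (edgeR adjusted p = 0.0104 with the block) and 2.69 ± 0.80 in siCdc73 (adjusted p = 0.0285). The siPaf1 value was 1.87 without siPaf1 replicate 2 (adjusted p = 0.481), and both its sites lie past the annotated end. Splicing factors and hnRNP proteins held 11 close of 23 pairs (medians 0.34, -0.05 and 0.46), translation factors 11 of 25 (0.09, 0.32 and -0.13, with Eif1b called in siPaf1), mitosis and cell cycle genes 13 of 27 (0.10, 0.26 and -0.08) and proteasome and ubiquitin genes 12 of 32 (0.07, 0.01 and -0.30). Oxidative phosphorylation genes held 7 of 14 (-0.50, 0.53 and 0.04), extracellular matrix genes 10 of 32 (0.38, 0.43 and -0.07) and actin and contractile genes 10 of 19 (-0.14, -0.17 and 0.57). No member of these lists other than Rpl36 and Eif1b was called. With so few members, and no call in most lists, no group can be said to differ from all close pairs.

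RNA-seq over coding regions, which does not count the 3'UTR, was available for 727 genes with a close pair among 6521 tested. Their median log2 change was -0.02 in siPaf1, -0.09 in siCdc73 and 0.12 in siSki8, against 0.01, -0.02 and -0.03 over all genes. Without the block 0 genes were called (background 0%), with an unadjusted p under 0.05 in 41 up and 80 down in siPaf1 (background 8.77% and 8.96%), 51 and 100 in siCdc73 (9.94% and 11.2%) and 20 and 15 in siSki8 (2.45% and 3.08%). DESeq2 called 11 and 35 in siPaf1 (1.51% and 4.81%, background 2.68% and 3.3%), 23 and 43 in siCdc73 (3.16% and 5.91%, background 4.06% and 4.37%), and 1 and 0 in siSki8 (background 0.046% and 0.0307%). With the block 100 genes rose (13.8%, background 16.3%) and 133 fell (18.3%, background 16.2%) in siPaf1, 133 rose (18.3%, background 19.4%) and 169 fell (23.2%, background 20.5%) in siCdc73, and 26 rose (3.58%, background 2.93%) and 10 fell (1.38%, background 2.5%) in siSki8. The siSki8 median turned to -0.22, and that of all genes to -0.37, when libraries were scaled by their total alone.

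Rpp30 was at 93.6 and 279.7 CPM in siCtrl, 50.0 and 119.7 CPM in siPaf1, 62.7 and 152.2 CPM in siCdc73 and 425 CPM in siSki8 in RNA-seq. Within each batch it was lower in siPaf1 and siCdc73 than in siCtrl, and the fall was -1.07 ± 0.24 on the log2 scale in siPaf1 (edgeR adjusted p = 0.001 with the block) and -0.73 ± 0.23 in siCdc73 (adjusted p = 0.013). Prep was at 1025 and 1343 CPM in siCtrl and 626 and 755 CPM in siPaf1, with a log2 change of -0.77 (edgeR adjusted p = 0.006 with the block). In Rpp30 the siPaf1 shares were higher in both batches, while in Prep only siPaf1 replicate 2 stood far above siCtrl. This describes 2 genes picked for their shares.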

How the data were processed

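The authors aligned both assays to mm9 (Bowtie2, local mode) and discarded ambiguous alignments. From 3'READS they retained reads with at least 2 non-genomic Ts (PASS reads) and deposited raw counts per pA. From rRNA-depleted, strand-specific RNA-seq the authors deposited raw counts over coding regions and RPKM, the latter not used here. Versions are not given in the sources used here. All 7 columns per assay matched a label, and 0 were left unmatched. Ties for the second site (6 genes, 3 close) went to the site with the lower genomic coordinate.

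The isoform by knockdown interaction was fitted over all 4567 pairs with edgeR 4.0.16 (R 4.3.3, limma 3.58.1), all libraries in one fit, with Benjamini-Hochberg adjustment and calls at 0.05. The study's methods have no batch term, so the fit without the block was the main one. DESeq2 1.42.0, Fisher's exact test on pooled reads, other filters, limits and scalings and leaving out each library were the alternatives. The replicate numbers in the library titles were taken to mark batches and so to pair the libraries. The differences between the numbered batches correlated across close pairs (Pearson's r 0.516 between siCtrl and siPaf1, 0.568 between siCtrl and siCdc73, 0.478 between the knockdowns). Within-batch ratios had 0.5 reads added to both sites. Depth is the number of PASS reads, which carry no molecular identifiers, so copies of the same molecule cannot be told apart. Intervals (Wilson, 95%) cover the counting error of reads only and may be too narrow for molecules. They leave out the spread between libraries, and shares from few reads are uncertain.

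Sequences and annotation came from the NCBIM37 (mm9) genome and its GENCODE annotation, which matched 4527 pair genes. Tables and figures were made in Python 3.11.15 (matplotlib 3.10.9, scipy 1.17.1, pandas 2.3.3, numpy 2.4.6). On simulated data for siPaf1 against siCtrl, 200 of 4567 pairs were changed 4-fold. Where batches did not differ, 105 were recovered without and 103 with the block. Where they did, 0 and 89 were recovered. Of 4367 unchanged pairs 0 to 5 were called. The simulated batch difference of a pair was the same in all groups, the form that the block removes. In the data the batch differences correlated only in part between groups. The simulated spread between libraries was also equal for all pairs and below that of the data, so recovery and false calls may differ there. The simulation thus checks the fit and does not measure how many real calls are right.

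The members and gene lists were chosen with earlier results of these data known. Named pairs are, per knockdown, the 6 with the smallest p toward the proximal and the 4 toward the distal site with the block, among close pairs with a mean of at least 50 reads that changed one way in every batch, the first 3 each way for siPaf1 against siCdc73, the 10 with most reads, list members, genes the paper names and those at the limits. Other called pairs, the germ cell genes, Rbm25 and Lgals1 in the fits without siPaf1 replicate 2 were named after their values were seen.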

Additional observations from a re-analysis of the deposited data

How the results depend on the processing

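Without the replicate block edgeR called 0 close pairs, and DESeq2 called 1 in siPaf1 (background 0.526% of all pairs). With it 19 proximal and 4 distal were called in siPaf1, 12 and 1 in siCdc73, 1 and 0 in siSki8 and 2 and 5 in siPaf1 against siCdc73. Of these, 10 and 3, 9 and 0, 1 and 0, and 0 and 4 had both sites at 5% of the pair in siCtrl. Fisher's exact test on pooled reads, which leaves out the spread between libraries, called 421 and 208, 397 and 134, 291 and 147, and 233 and 265 (41.8%, 35.3%, 29.1% and 33.1% of close pairs, background 49.7%, 43.6%, 35.7% and 41.5%), and its siPaf1 against siCdc73 median was -0.027. With the block and 1 library left out, proximal calls ranged from 2 to 31 and distal from 0 to 6 in siPaf1 (0 distal without a siCtrl library, and otherwise 1 or more), from 2 to 15 and 1 to 2 in siCdc73, and from 0 to 5 and 0 to 4 in siPaf1 against siCdc73, with 0 and 0 without siCdc73 replicate 2. In siSki8 there was 1 proximal call, or 0 without a siCtrl library. Without siPaf1 replicate 2 the siPaf1 counts were 3 and 1, and without siCtrl replicate 2 they were 2 and 0. Medians ranged with 1 library left out from 0.13 to 0.26 in siPaf1, from 0.21 to 0.34 in siCdc73 (0.23 to 0.30 with the block), from 0.069 to 0.23 in siSki8 (0.16 to 0.24 with the block, 0.23 to 0.24 without a siCdc73 library) and from -0.11 to 0.021 in siPaf1 against siCdc73, the last without siCdc73 replicate 1 (-0.085 to -0.020 with the block, with -0.021 without siPaf1 replicate 1 and -0.042 without siCdc73 replicate 2, and -0.026 on the pairs chosen without siPaf1 replicate 2). With no filter on low counts they were 0.19 in siCdc73 and 0.077 in siSki8, at a limit of 200 bases 0.23 in siCdc73, and over the 1375 pairs with both sites in siCtrl 0.26. Most named pairs had been picked for 1 direction in every batch, so that 845 of 849 alternative values kept their direction is no sign of stability. The others were Rbpms2 in siPaf1 without siCtrl replicate 2 (-0.22, up to 8.59 with another library left out), Rnf19b in siPaf1 with the block without siCtrl replicate 2 (-1.36, fitted on few or 0 siCtrl reads), Yeats4 in siPaf1 without siCtrl replicate 1 (0.058, down to -2.65 with another library left out) and Eif1b in siPaf1 against siCdc73 with the block without siPaf1 replicate 2 (-0.37). The cause was not tested.

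In RNA-seq of close-pair genes, calls up and down were 100 and 133, 133 and 169, and 26 and 10 with the block, 11 and 35, 23 and 43, and 1 and 0 with DESeq2, and 6 and 18, 6 and 26, and 0 and 0 without a filter (734 genes), for siPaf1, siCdc73 and siSki8. Leaving out 1 library gave at most 1 up and 3 down in siPaf1. With library size alone the medians were -0.25 in siCdc73 and -0.22 in siSki8, the latter reversed. The block with a library left out, the limit to pairs with both sites in siCtrl and the choice of pairs without siPaf1 replicate 2 were alternatives chosen after seeing the data. Low PASS totals limit siCdc73 replicate 1 most, and 75 close pairs had a mean of only 20 to 25 reads per library.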
